A study of Mus musculus with 8 samples.

Results

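E proteins and Id proteins form one network of helix-loop-helix transcription regulators. The 6 genes described here are the E protein genes Tcf3, Tcf4 and Tcf12 and the Id genes Id1, Id2 and Id3. They were chosen by gene symbol, and all 6 were among the 16418 genes of the deposited normalized table. Id2 rose in the KO libraries, Id3 lay higher without passing the main test, and the 3 E protein genes differed little between the groups.

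RNA-seq was run on naive CD4 T cells from spleen and lymph node, sorted as CD3+CD4+ cells without CD25 and with low or no CD44, among other markers. Every mouse was Satb1fl/fl and CD4-CreERT2wt/+, that is, it had floxed Satb1 alleles and a Cre recombinase driven by CD4 sequences and activated by tamoxifen. The 4 KO samples (Sample_2907_KO, Sample_2908_KO, Sample_2909_KO and Sample_2910_KO) were treated with tamoxifen and the 4 WT samples (Sample_2911_WT, Sample_2913_WT, Sample_2914_WT and Sample_2915_WT) were untreated, so that WT names an undeleted animal of the same genotype and not a wild-type strain. Tamoxifen and the intended deletion cannot be told apart in this design. The labels give no ages. Nor do they tie each sample to an animal of its own, so the spread behind the p-values may be technical. Values for the 4 libraries of a group are listed below in the order of these labels.

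E proteins bind DNA as dimers at E-box elements, whose letters are CANNTG. Id proteins have the dimerisation domain of this family but no DNA-binding basic region, so an Id protein bound to an E protein keeps it off DNA. In T cells E proteins drive early receptor gene rearrangement and hold back activation programmes, while Id2 and Id3 are known for restraining E proteins as cells pass selection checkpoints and as helper, memory and regulatory fates are set. Satb1, the targeted gene, encodes a chromatin-organising protein of the T cell lineage.

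The libraries held 5227758 to 21998174 reads, and the deepest was Sample_2914_WT. Levels are given as CPM, read counts relative to library size after TMM scaling, a correction for differences in library composition. Satb1 stood between 839.6 and 1032 CPM in the KO libraries and between 987.2 and 1083 CPM in the WT libraries, a log2 difference of -0.18 (SE 0.059; edgeR adjusted p = 0.0582, not called at 0.05). Counts per gene cover all exons, and the labels do not say which exons are floxed, so this level does not check the deletion. The sort could be checked against markers: Cd3e, Cd4, Trac, Ccr7 and Lef1 had mean levels of 377.0 CPM or more in both groups. Of 12 naive CD4 T cell markers, all tested, 2 were called higher in KO and 3 lower (Cd4, Ccr7 and Tcf7).

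E-box letters were looked for before the RefSeq starts of the network's own genes. RefSeq promoter windows (build GRCm38.p6) matched 4 of the 6 genes, Id2, Id3, Tcf3 and Tcf12, and the 250 bases before each RefSeq start were searched on both strands. A RefSeq start need not be the outermost start in GENCODE M21. For Id2 it lies 1048 bases inside the gene's outer start given below, so the Id2 run is upstream of the RefSeq start but in an intron of the longest GENCODE transcript. It lies 325 bases inside for Id3, 12 for Tcf3 and 52 for the most upstream of 3 Tcf12 windows. Below, E-box letters are in capitals, each run is read 5′ to 3′ on the gene's own strand, and the run ends where an annotated exon begins. They are shown because Id2 is the member that rose, while Tcf3 and Tcf12 are the main E protein genes of these cells.
Id2, chr12:25096254-25096342, minus strand: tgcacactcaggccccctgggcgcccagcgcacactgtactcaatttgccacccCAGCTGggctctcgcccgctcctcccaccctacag
Tcf3, chr10:80433648-80433885, minus strand: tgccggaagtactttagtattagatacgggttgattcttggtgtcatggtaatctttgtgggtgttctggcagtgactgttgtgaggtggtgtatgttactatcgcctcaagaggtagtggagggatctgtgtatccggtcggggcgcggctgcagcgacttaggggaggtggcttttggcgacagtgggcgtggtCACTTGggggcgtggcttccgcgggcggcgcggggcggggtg
Tcf12, chr9:72111872-72112069, minus strand: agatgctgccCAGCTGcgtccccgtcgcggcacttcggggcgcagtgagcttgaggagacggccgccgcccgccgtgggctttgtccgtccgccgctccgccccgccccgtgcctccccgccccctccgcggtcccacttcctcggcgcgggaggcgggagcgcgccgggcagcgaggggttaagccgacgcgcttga

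The 250-base windows of Id2 and Tcf3 each held 1 E-box, and the Id3 window held 0. Of the 3 Tcf12 windows, the one shown and the next each held 1 E-box, and the last held 0. The Id2 E-box and that of the Tcf12 window shown read CAGCTG, a palindrome that lies 196 to 191 bases before the RefSeq start of Id2. The Tcf3 E-box reads CACTTG, and that of the other Tcf12 window reads CAAGTG. Of 32851 windows of the same length over all genes, 66.2% held some CANNTG and 13.0% held CAGCTG, so these matches are common. The Id2 window also held GGCGCC, letters that BMP-activated SMAD proteins can bind, as did 9.59% of all windows. The letters GCGTGGGCG, a site for EGR factors, were in none of the 4 genes' windows and in 0.536% of all windows. A match describes letters only.

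Among the Id genes, Id2 (ENSMUSG00000020644.9, mm10 chromosome 12, 25093799 to 25097140, minus strand) encodes the inhibitor best known for promoting effector and innate-like lymphocyte fates. It stood at 67.9, 69.9, 73.9 and 66.8 CPM in the KO libraries, and at 38.4, 42.9, 38.2 and 41.5 CPM in the WT libraries. Every KO library lay above every WT library, with a wide gap between the groups. Mean CPM was 69.6 ± 3.13 for KO and 40.2 ± 2.33 for WT (SD, n = 4 each). Id2 rose 1.74-fold (95% interval 1.56 to 1.94; log2 fold change 0.80, SE 0.078; edgeR quasi-likelihood test, adjusted p = 1.4e-08).

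By its unadjusted p, Id2 ranked 27 of 11772 tested genes, and by size it ranked 98 of the 468 genes called higher. The comparison called 6.39% of tested genes changed, with 3.98% higher and 2.41% lower in KO. Every KO library lay above every WT library in 6.23% of tested genes, and below in 4.86%. Id2 was the 1 called gene of the 5 members that could be tested. An exact 2-sided permutation test over the libraries gave p = 0.0286, the smallest that 4 against 4 allows.

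**Figure D1:**
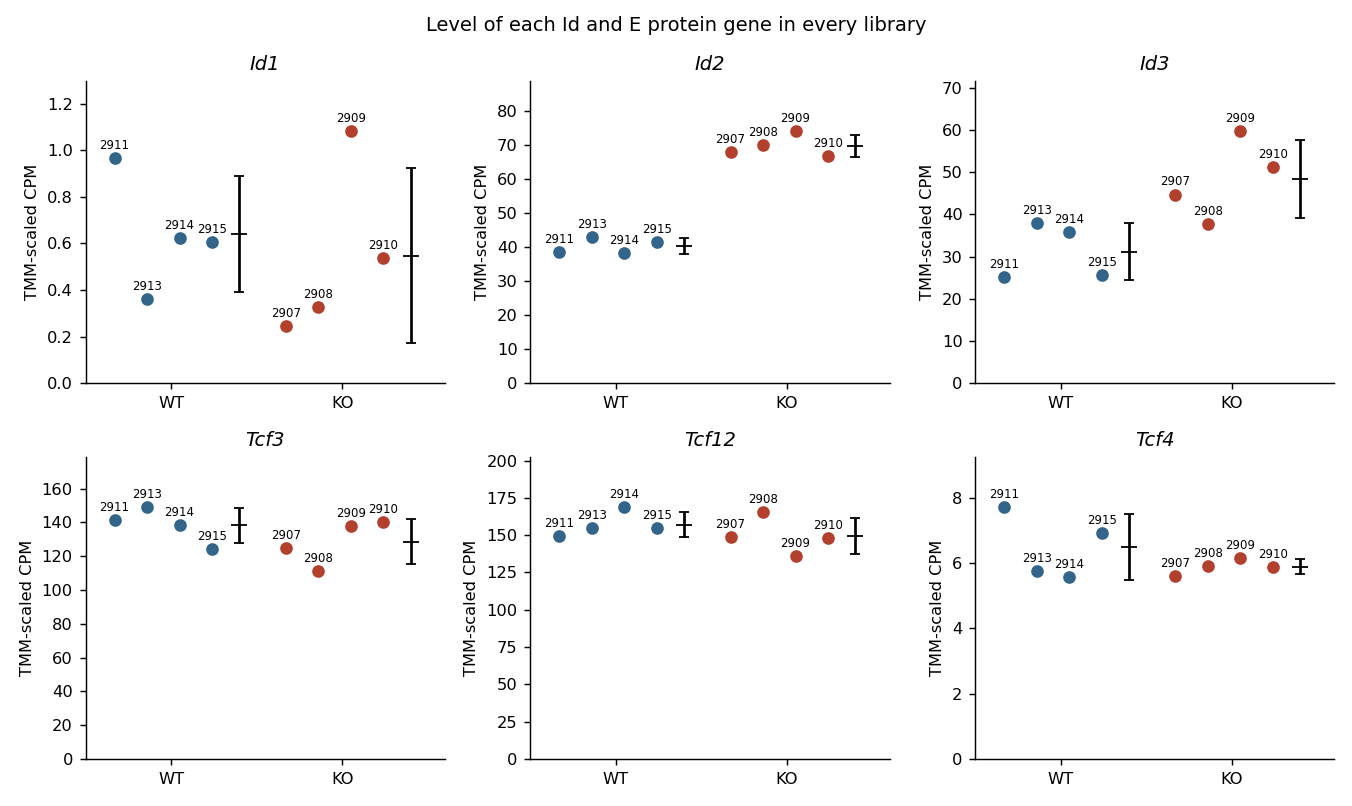
Level of each of the 6 genes in every library, in TMM-scaled CPM on a linear axis from 0, with the sample number above each point and the mean with its SD (n = 4) at the right of each group. For Id2 the KO libraries lie between 66.8 and 73.9 CPM and the WT libraries between 38.2 and 42.9, while for the other 5 genes the groups overlap.

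Id3 (ENSMUSG00000007872.3, chromosome 4, 136143497 to 136145755, plus strand) encodes the inhibitor that is induced through T cell receptor signals and EGR factors and that is known for roles in naive and regulatory T cells. Its levels were 44.7, 37.8, 59.7 and 51.2 CPM in the KO libraries, and 25.1, 38.0, 35.8 and 25.6 CPM in the WT libraries. In 3 of the 4 KO libraries Id3 lay above all WT libraries, and Sample_2908_KO lay just under Sample_2913_WT. Mean CPM was 48.3 ± 9.31 for KO and 31.1 ± 6.75 for WT (SD, n = 4 each). The fold change was 1.54 (95% interval 1.18 to 2.02; log2 fold change 0.62, SE 0.174), and it did not pass the threshold over all genes (edgeR adjusted p = 0.0718). The exact 2-sided permutation test gave p = 0.0571.

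Id3 differed from Id2 less in the size of the difference than in its spread. Between libraries of a group Id3 varied by 19.3% in KO and 21.7% in WT (coefficient of variation, n = 4 each), against 4.49% and 5.79% for Id2. Counting error alone would give Id3 3.53% to 8.77% in single libraries. The robust fit used here gives genes of unusual spread less support from the other genes: Id3 kept 3.51 prior degrees of freedom, and Id2 had 23.3, which was also the median of all genes. Without the robust option Id3 passed at the same fold change (adjusted p = 0.00933). It also passed with DESeq2 (adjusted p = 0.00116), limma-voom (0.00901), limma-trend (0.00561) and no count filter (2.51e-08), and without Sample_2908_KO (0.00779) or Sample_2914_WT (0.0368). With no count filter the edgeR adjusted p of Id2 fell too, to 4.89e-18 at a log2 fold change of 0.79. Dropping the filter thus lowered p with hardly any change in size, so that value adds little support for Id3. In all, 7 of 19 alternatives put Id3 past the threshold, and over all 19 its log2 fold change lay between 0.50 and 0.73. Whether the Id2 and Id3 changes differ from each other was not tested.

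**Figure D2:**
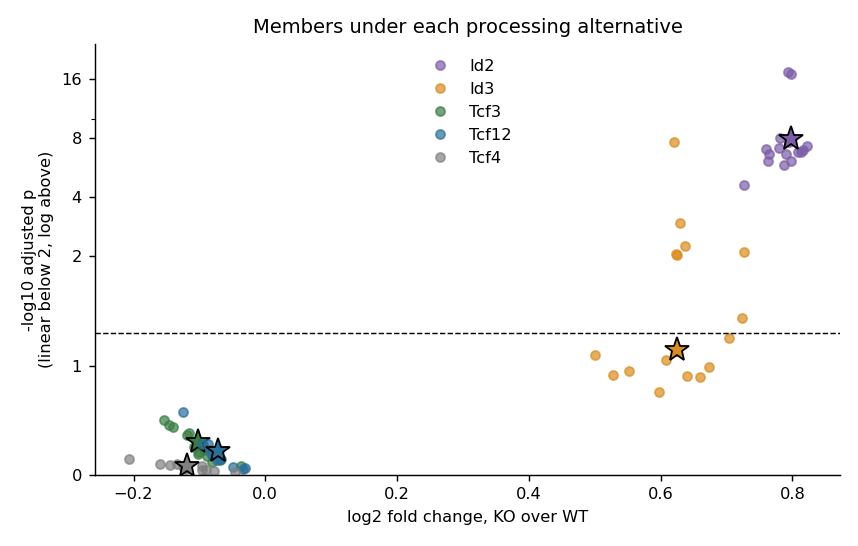
Log2 fold change of KO over WT (x axis) against -log10 of the adjusted p (y axis, linear below 2 and logarithmic above) for the 5 tested genes, with circles for the 19 processing alternatives, stars for the values reported and a dashed line at an adjusted p of 0.05. Id2 lies above the line throughout, Id3 lies on both sides of it, and Tcf3, Tcf12 and Tcf4 stay below it.

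Id1 (ENSMUSG00000042745.9, chromosome 2, 152736251 to 152737410, plus strand), an inhibitor driven by BMP signals in many tissues, was near the limit of detection and was not among the tested genes. It had 2, 3, 10 and 4 reads in the KO libraries, and 5, 2, 14 and 7 reads in the WT libraries. The groups overlapped fully. Pooled over the libraries, 19 KO reads against 28 WT reads gave a ratio of 0.892 (exact 95% interval 0.471 to 1.65, covering counting error only; exact 2-sided permutation p = 0.657 on CPM). The sign of this ratio depended on single libraries: the log2 ratio of -0.17 became 0.071 without Sample_2907_KO, 0.037 without Sample_2908_KO and -0.79 without Sample_2909_KO. The remaining Id gene of the mouse, Id4, had 0 reads in every library.

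Among the E protein genes, Tcf3 (ENSMUSG00000020167.14, chromosome 10, 80409514 to 80433647, minus strand) encodes the E2A proteins, which act from the earliest lymphocyte stages. It was at 125.1, 111.2, 137.8 and 140.5 CPM in the KO libraries, and at 141.3, 149.1, 138.7 and 124.3 CPM in the WT libraries. The groups overlapped, with the lowest value in Sample_2908_KO and the highest in Sample_2913_WT. The log2 fold change was -0.10 (SE 0.071; 95% interval -0.25 to 0.04; edgeR adjusted p = 0.501).

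Tcf12 (ENSMUSG00000032228.16, chromosome 9, 71842688 to 72111871, minus strand) encodes HEB, the usual partner of E2A in T cells. It was at 148.9, 165.4, 136.1 and 148.4 CPM in the KO libraries, and at 149.2, 154.6, 168.8 and 154.9 CPM in the WT libraries. Again the groups overlapped, and the KO library lowest for Tcf3, Sample_2908_KO, was the highest for Tcf12. The log2 fold change was -0.07 (SE 0.063; 95% interval -0.20 to 0.06; edgeR adjusted p = 0.610). For Tcf3 and Tcf12 these intervals allow a KO level between 0.843 and 1.04 times that of WT, so a change of the size of that in Id2 lies outside them.

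Tcf4 (ENSMUSG00000053477.16, chromosome 18, 69343356 to 69689079, plus strand) encodes E2-2, the E protein on which plasmacytoid dendritic cells depend. It was low, at 5.62 to 6.16 CPM in KO (44 to 57 reads a library) and 5.57 to 7.72 CPM in WT (32 to 125 reads). All KO values fell inside the WT range. Its log2 fold change of -0.12 (SE 0.200; 95% interval -0.53 to 0.29; edgeR adjusted p = 0.823) leaves room for larger changes than those of Tcf3 and Tcf12. This Tcf4 is the E protein gene and not the Wnt pathway factor that shares the alias, which is Tcf7l2.

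**Figure D3:**
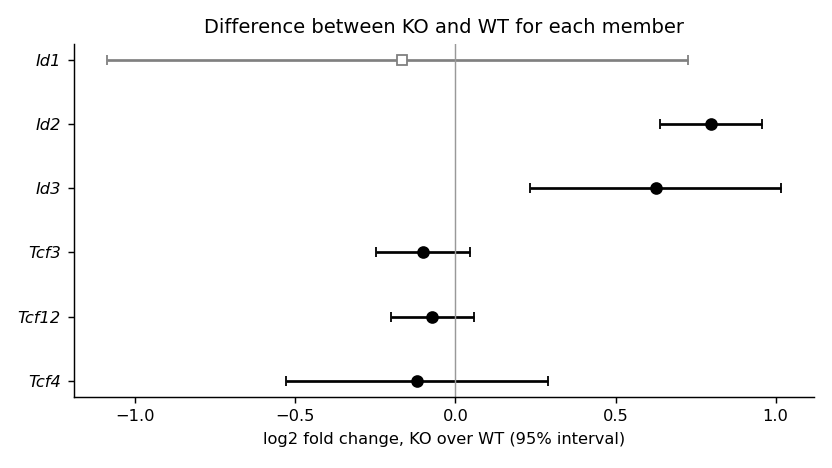
Log2 fold change of KO over WT with its 95% interval for each of the 6 genes. Filled circles come from the fit over all genes, and the open square for Id1 is the ratio of pooled reads with an exact interval for counting error only. The intervals of Id2 and Id3 lie to the right of 0, and those of the other 4 genes include 0.

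Levels of different genes were compared per length, as CPM per kilobase of annotated exon (RPKM). In WT the order was Tcf3 (34.2 ± 2.56 RPKM), Id3 (17.4 ± 3.77), Id2 (16.5 ± 0.955), Tcf12 (10.1 ± 0.539), Id1 (0.551 ± 0.214) and Tcf4 (0.237 ± 0.0369; SD, n = 4 each). Id3 and Id2 did not differ beyond their spread, whereas the other neighbours had library ranges that did not overlap. In KO the order was Tcf3 (31.8 ± 3.33 RPKM), Id2 (28.6 ± 1.28), Id3 (27.0 ± 5.20), Tcf12 (9.64 ± 0.776), Id1 (0.472 ± 0.324) and Tcf4 (0.215 ± 0.0081). The first 3 places in KO had neighbours with overlapping ranges, as did the last 2. At this length the ranges therefore did not set Id2 and Id3 apart from Tcf3 in KO. The order and the gaps depend on the length used. With the longest coding transcript in place of the exon union, mean KO levels were 35.4 RPKM for Id2 and 37.8 for Id3, below 43.6 for Tcf3. Tcf12 in KO then came to 23.8 RPKM and Tcf4 passed Id1 (0.688 against 0.472). In WT Tcf12 (24.9) moved to the second place, above Id3 (24.4).

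As a description of the balance between inhibitors and their targets, the 3 Id genes were summed in each library and set beside the 3 E protein genes. The summed Id level was 50.1 to 64.6 RPKM in KO and 30.6 to 39.1 RPKM in WT. The summed E protein level was 38.4 to 44.6 RPKM in KO and 41.0 to 47.1 RPKM in WT. Their ratio was 1.30, 1.30, 1.50 and 1.27 in the KO libraries, and 0.682, 0.831, 0.797 and 0.776 in the WT libraries. The ratio was higher in each KO library than in any WT library. Id2, a large part of the Id sum, already separated the groups, so this is no independent result. With the longest coding transcript as length the ratios were 1.01 to 1.23 in KO and 0.552 to 0.685 in WT, so the separation held while the values themselves shifted. These are RNA levels, and they say nothing of the amounts of protein.

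**Figure D4:**
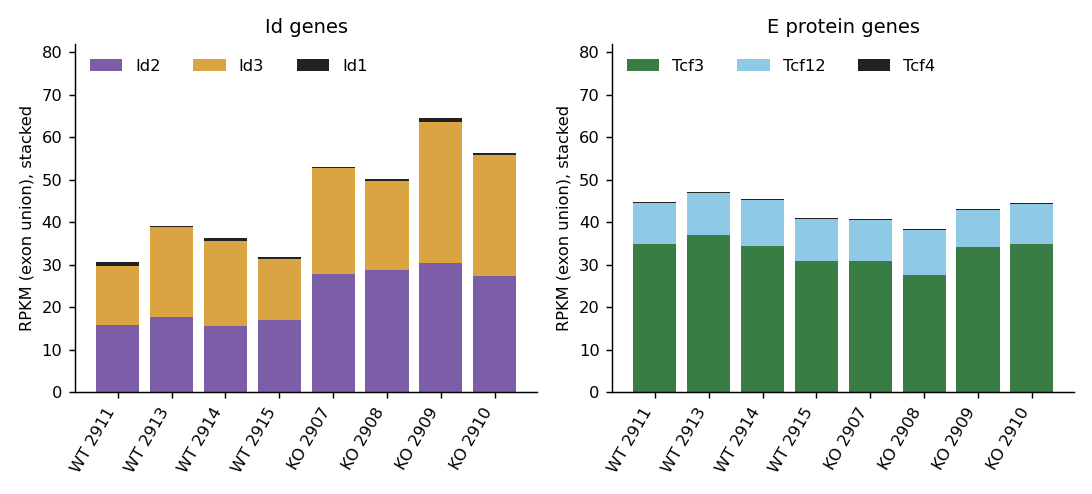
RPKM over the exon union of each gene in every library, stacked for the Id genes at the left and the E protein genes at the right, on the same scale from 0. The Id bars reach 50.1 to 64.6 in KO and 30.6 to 39.1 in WT, while the E protein bars lie between 38.4 and 47.1 in all 8 libraries.

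Within each family the shares moved little. Id2 made up 47.0% to 57.3% of the summed Id level in KO and 43.2% to 53.4% in WT, with Id3 making up nearly all of the rest. Tcf3 made up 71.7% to 79.2% of the summed E protein level in KO and 75.1% to 78.4% in WT. The ranges of both shares overlapped between the groups.

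The genes whose profile over the 8 libraries was most like that of Id2 were Scly, a selenocysteine lyase, Carhsp1, an RNA-binding protein, and Tdrd7, a Tudor domain protein. Likeness was the root mean square difference of log2 CPM after each gene's own mean was removed, over 9058 protein-coding genes of at least 5 CPM. The difference was 0.060 for Scly, 0.085 for Carhsp1 and 0.090 for Tdrd7, against a median of 0.417 over those genes. Mean CPM of Scly was 39.6 ± 1.37 for KO and 22.9 ± 2.40 for WT (SD, n = 4 each). Scly overlaps an antisense gene, so its reads may not be separable.

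Genes that bind or assist E proteins were counted next. Of 26 partner and cofactor genes, 10 could be tested, and 2 rose and 0 fell, which is 20% of those tested beside 6.39% of all genes. The median log2 fold change of the 10 was 0.04, beside -0.00047 over all tested genes. Lmo4, a LIM-only adaptor protein, rose from 29.7 ± 1.83 to 39.2 ± 3.17 CPM (SD, n = 4 each; log2 fold change 0.39, SE 0.094, edgeR adjusted p = 0.00821). Gata3, the GATA factor of T cells that joins E protein complexes, rose from 54.6 ± 2.59 to 69.9 ± 5.36 CPM (0.35, SE 0.075, adjusted p = 0.00268). Lmo4 lost its call without Sample_2907_KO (adjusted p up to 0.0861 over the alternatives that lost it), and leaving out Sample_2911_WT and Sample_2914_WT together ended both calls. Gata3 shares exon sequence with other annotated genes, 1 of them antisense. The adaptor Ldb1, which bridges LIM-only proteins and E protein dimers, differed by -0.01 on the log2 scale (adjusted p = 0.953). The classical dimer partners of E proteins were scarce: Tal1 had 1 read in each group in all, Lyl1 had 16 in KO and 39 in WT, and Msc and Twist1 had 0.

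Other factors, listed as binding E-box or related letters, were counted as well, and few were called changed. Of 38 genes, 26 could be tested, and 1 rose and 1 fell, which is 7.69% of those tested beside 6.39% of all genes. The median log2 fold change was 0.02. Usf2, a ubiquitous E-box factor, fell (log2 fold change -0.31, SE 0.080, adjusted p = 0.0152), and Srebf2, the activator of sterol synthesis genes, rose (0.19, SE 0.054, adjusted p = 0.0243). Usf2 lost its call with limma-voom, without Sample_2910_KO or Sample_2913_WT, and without Sample_2911_WT and Sample_2914_WT together. Over these alternatives its adjusted p reached 0.180. Srebf2 lost its call in 8 of 19 alternatives, among them without Sample_2907_KO, Sample_2909_KO, Sample_2910_KO, Sample_2911_WT, Sample_2913_WT or Sample_2914_WT, with adjusted p up to 0.190. Zeb1, a repressor that competes at E-boxes, differed by -0.01 on the log2 scale (adjusted p = 0.948). Usf2 overlaps antisense genes.

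Genes reported elsewhere as E protein targets in lymphocytes moved in both directions. Of 29 such genes 15 could be tested, and 4 rose and 3 fell (46.7% of those tested, beside 6.39% of all genes). This list was drawn up with some of its members already known to differ here, so its share is no independent evidence. Their median log2 fold change was 0.09. Those that fell were Dntt, the terminal transferase of receptor gene rearrangement (14.2 ± 2.24 CPM in WT and 4.79 ± 1.09 in KO, SD, n = 4 each; log2 fold change -1.55, adjusted p = 7.78e-07), the T cell factor gene Tcf7 (-0.29, adjusted p = 0.000291) and the coreceptor gene Cd4 (-0.19, adjusted p = 0.0242). Those that rose were Il7r, a chain of the receptor for interleukin 7 (0.74, adjusted p = 0.0245), Cdk6, a cyclin-dependent kinase (0.50, adjusted p = 0.00131), Dtx1, a Notch-linked ubiquitin ligase (0.41, adjusted p = 0.00946), and the receptor gene Notch1 (0.25, adjusted p = 0.0283), all by edgeR.

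Dntt, Tcf7 and Cdk6 held their calls in all 19 alternatives. Cd4 lost its call without Sample_2907_KO, Sample_2911_WT or Sample_2913_WT (adjusted p up to 0.194). Il7r lost its call without Sample_2907_KO, Sample_2908_KO, Sample_2911_WT or Sample_2914_WT (up to 0.206), and Dtx1 without Sample_2909_KO (up to 0.106). Notch1 lost its call in 8 alternatives, among them without Sample_2907_KO, Sample_2909_KO, Sample_2910_KO, Sample_2914_WT or Sample_2915_WT (up to 0.119). Leaving out Sample_2911_WT and Sample_2914_WT together also ended the calls of Cd4, Il7r, Dtx1 and Notch1. Each highest adjusted p given here is over all alternatives that lost the call, that pair included. Notch1 and Cdk6 overlap genes on the opposite strand. The earliest E protein targets of thymocytes, Rag1, Rag2 and Ptcra, had 0 reads in every library. Cxcr4, a chemokine receptor gene that lay higher in every KO library, differed by 1.08 on the log2 scale without passing (adjusted p = 0.118).

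Routes known to act on Id genes include BMP and TGF-beta signals through SMAD proteins and T cell receptor signals through EGR factors. Only genes of these routes were counted, and other routes to Id genes were not. Of 30 genes of these routes 23 could be tested, and 2 rose and 2 fell (17.4% of those tested, beside 6.39% of all genes). The list mixes activators and inhibitors of the routes, so these counts give no direction for a route. The median log2 fold change was 0.02. The EGR corepressor genes Nab1 (log2 fold change 0.22, SE 0.062, adjusted p = 0.0233) and Nab2 (0.37, SE 0.101, adjusted p = 0.0254) rose. The TGF-beta mediator gene Smad3 (-0.25, SE 0.074, adjusted p = 0.0349) and the SMAD ubiquitin ligase gene Smurf1 (-0.21, SE 0.063, adjusted p = 0.0424) fell. Egr1 stood at -0.09 (adjusted p = 0.649), Egr2 at 0.23 (0.424) and Egr3 at -0.15 (0.450) on the log2 scale, all by edgeR.

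None of these 4 calls held throughout. Smad3 and Smurf1 each lost theirs in 11 of 19 alternatives, with adjusted p up to 0.336 and 0.162, and Nab1 and Nab2 in 6 of 19, with adjusted p up to 0.276 and 0.123. Leaving out 1 library ended at least 1 of the 4 calls for each of the 8 libraries, and without Sample_2914_WT there were 0. Nab2 overlaps Stat6 and other genes on the opposite strand.

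**Figure D5:**
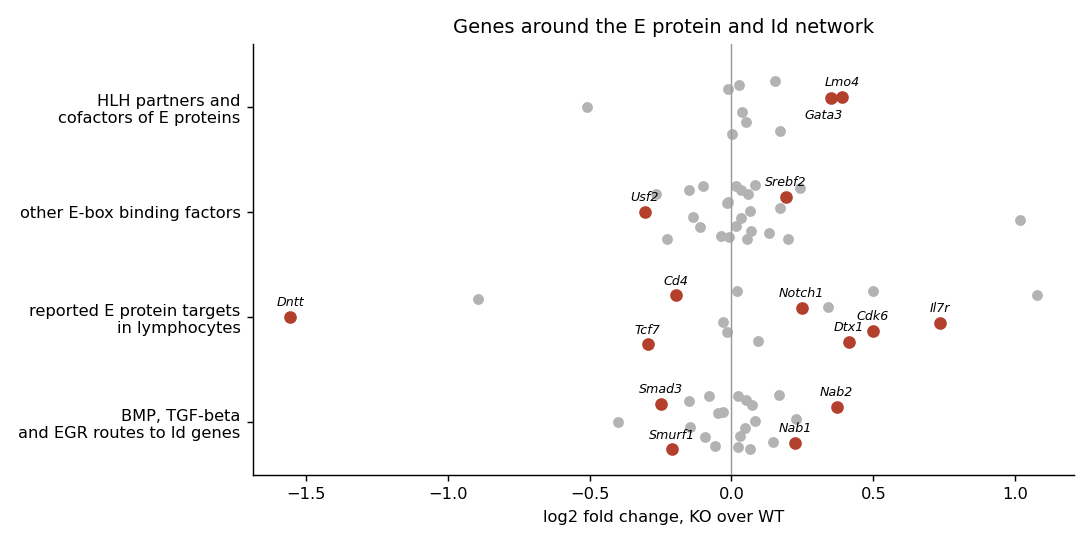
Log2 fold change of KO over WT for every tested gene of the 4 lists, 1 point a gene with the lists as rows and vertical scatter only to separate points. Red points passed an edgeR adjusted p of 0.05 and carry their names, and grey points did not. Most points lie near 0, and the named genes lie on both sides of it.

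Markers of other cells were read beside the rise of Id2, since innate lymphocytes, activated T cells and regulatory T cells also express Id2 or Id3. In bulk RNA, more cells of a type and more RNA per cell cannot be told apart. The 11 markers of NK and innate lymphoid cells summed to 60.3 to 68.3 CPM in KO and 68.1 to 81.6 CPM in WT, with 0 higher and 1 lower of 4 tested (Klrd1, log2 fold change -0.51). The NK defining genes Ncr1 and Klrb1c had 3 and 4 reads in KO and 4 and 5 in WT in all. The 9 markers of activated or memory T cells other than Id2 summed to 191.9 to 210.2 CPM in KO and 168.0 to 181.8 CPM in WT. That difference lay in Il2rb, with a mean of 53.1 CPM for KO and 22.4 CPM for WT. Cd44 went the other way (32.4 and 40.7 CPM), and Cd40lg, the largest part of the sum, differed little (98.7 and 92.7 CPM). This sum therefore does not show a rise of these markers as a set. Of 5 tested, Il2rb was higher and Cd44 lower, and S100a4 had 0 reads in KO and 2 in WT. Their part in the Id2 result was not tested.

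The 8 regulatory T cell markers summed to 115.3 to 196.7 CPM in KO and 56.5 to 69.7 CPM in WT, with Foxp3 and Tnfrsf18 higher of 6 tested. Most of that difference lay in Foxp3, at 55.1, 93.2, 112.7 and 112.6 CPM in the KO libraries and 6.92 to 9.76 CPM in WT. Foxp3 shares exon sequence with annotated genes on both strands, so its reads may not be separable. Without Foxp3 the other 7 markers summed to 60.2 to 84.0 CPM in KO and 48.4 to 60.9 CPM in WT, and the groups overlapped. In the KO libraries this sum was 60.2, 61.2, 84.0 and 70.2 CPM. Sample_2909_KO had the highest value of this sum, of Id2 and of Id3. Sample_2910_KO had the next highest sum and Id3, and the lowest Id2 of the KO libraries (66.8 CPM). Id2 varied by only 4.49% between KO libraries, and counting error alone would give 3.82% to 4.48%. The order of Id2 among these libraries therefore carries little information. The part of regulatory T cells in the Id2 and Id3 levels was not tested.

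For Tcf4 the cells of interest are plasmacytoid dendritic cells and B cells. The 10 plasmacytoid dendritic cell markers summed to 145.7 to 165.9 CPM in KO and 144.7 to 163.6 CPM in WT. Most of this sum lay in Pacsin1 (mean 85.4 CPM in KO and 102.7 in WT) and Bst2 (58.5 and 38.6). These genes differed in opposite directions, so the sum is no measure of such cells. Of 4 tested, Bst2 was higher (log2 fold change 0.65, edgeR adjusted p = 0.00316) and Pacsin1 lower (-0.27, adjusted p = 0.0151), and the defining gene Siglech had 2 reads in KO and 1 in WT in all. The 10 B cell markers summed to 4.11 to 6.03 CPM in KO and 3.43 to 4.83 CPM in WT. Of these, 2 could be tested and 0 were called, with 84 KO and 106 WT reads for Cd79a and 49 and 37 for Cd79b, and the other 8 had at most 13 reads in a group. For Id1 and Id3, which vessels and stroma also express, the 8 endothelial and stromal markers summed to 1.21 to 1.75 CPM in KO and 0.847 to 1.26 CPM in WT. None of the 8 could be tested, and the most reads in a group were 28, for Col1a1 in KO. Kdr and Tek were at 0 reads in KO and 4 each in WT, while Pdpn, Pdgfrb and Col1a2 were at 0 in WT and 3, 3 and 1 in KO.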

How the data were processed

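Poly(A) RNA from naive CD4 T cells of 4 KO and 4 WT samples was sequenced as single reads from TruSeq libraries, per the labels' protocols. The submitters' processing notes name mm10, FastQC, DESeq2 1.22.2, R 3.5.3 and CASAVA 1.8.2. Not given in the sources used here are the aligner, the counter and the use of strand. The authors deposited whole-number read counts for 53465 gene IDs and a signal table of 16418 genes, in which every deposited value equals a count over that sample's size factor. All of its values (100%) came back as whole reads within 0.01. These reads equal the deposited counts in all values (100%), so the edgeR test on them repeats the main fit, with the same 752 genes called.

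Samples were grouped by their titles. Symbols, positions and exon lengths came from GENCODE M21 (GRCm38, which is mm10), where 53360 of the IDs were found with versions ignored. Counts were tested with edgeR 4.0.16 in R 4.3.3 (robust quasi-likelihood F test, TMM, filterByExpr, 11772 genes kept), with Benjamini-Hochberg adjustment over all tested genes and a threshold of 0.05. An SE was obtained by dividing the size of the log2 fold change by the root of its F statistic. Id1 did not pass the filter and was compared by pooled reads and an exact permutation test. Intervals on pooled reads cover counting error only.

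Alternatives were DESeq2 1.42.0, limma 3.58.1 (voom with sample weights, and trend on the deposited normalized signal, as log2 with a pseudocount of 1), RLE factors, library size only, no count filter, 1 CPM in 4 samples, no robust option, thinning to 5227758 reads, leaving out Sample_2911_WT and Sample_2914_WT together, and leaving out each sample. The recovered reads were added after the data were seen, and they repeat the main fit.

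The members, gene lists and tests were chosen with earlier results of these data known. The genes named are the members, called list genes, the 3 genes most like each called member, markers and Satb1. Genes such as Cxcr4, Ldb1, Zeb1 and the EGR genes, and those given at 0 or few reads, were named after their values were seen.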

Additional observations from a re-analysis of the deposited data

How the results depend on the processing

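Id2 stayed past the threshold in all 19 alternatives, with log2 fold changes of 0.73 to 0.82. Tcf3, Tcf12 and Tcf4 stayed below 0 and short of it in all 19. The recovered reads are counted among the 19 but repeat the main fit, so they add no support. Id3 passed at 0.63 with DESeq2, 0.62 with limma-voom, 0.62 with no count filter, 0.64 with limma-trend and 0.62 without the robust option. Leaving out each sample gave Id3 0.50 to 0.73 and Id1 -0.79 to 0.071 on the log2 scale, and Id1 stood at 0.085 without Sample_2911_WT and Sample_2914_WT together. The count of changed genes was 752, became 481 without that pair, and lay between 562 and 836 with 1 sample left out. Without the same pair, called genes numbered 0 of the partners and cofactors, 0 of the other E-box factors, 4 of the reported targets and 1 of the routes to Id genes, and with 1 sample left out 1 to 2, 0 to 2, 4 to 7 and 0 to 4. The other E-box factors had 1 call with limma-voom and 1 with limma-trend. The routes to Id genes had 2 with limma-trend, 2 without the robust option and 2 after thinning. With the longest coding transcript as length, KO levels were 35.4 RPKM for Id2, 37.8 for Id3, 43.6 for Tcf3, 0.688 for Tcf4 and 23.8 for Tcf12. The cause of the other shifts was not tested. No paired analysis was possible because the groups share no sample numbers. Depth limits Id1, with 19 and 28 reads a group, and Tcf4.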
